A study of Mus musculus with 6 samples.

Results

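Voltage-gated and related cation channel genes were examined in 6 clonal lines of MIN6, an insulinoma line of the mouse that serves as a β-cell model. The members were all protein-coding mouse genes whose symbols open with Kcn and a further letter, or with Cacna, Cacnb or Cacng, or consist of Scn, a number and a or b, with Kcnj11 left out. This rule uses symbols only, and it found 133 genes among the 53801 mouse genes listed, of which 93 are potassium, 26 calcium and 14 sodium channel genes in 27 families. Snd1 encodes a coregulator with nuclease domains, which the study found in both nucleus and cytoplasm. The study compared cells with and without Snd1. The 3 control clones received Cas9 and a guide RNA to intron 2 of Snd1. The 3 Snd1 KO clones received Cas9 and 1 of 2 guide RNAs to exon 2. All 6 clones came from Cas9-expressing MIN6 cells that were infected with lentivirus, selected with puromycin and grown from single cells, so both groups carry Cas9, a guide and the resistance gene. Each clone gave 1 library, and each group is 3 clones of 1 parental line, so that p-values measure the spread between these clones.

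A β cell responds to glucose by closing ATP-sensitive potassium channels, after which its membrane depolarizes, voltage-gated calcium and sodium channels open and entering calcium triggers the release of insulin granules. Delayed-rectifier, ERG and calcium-activated potassium channels then repolarize the membrane, and background potassium channels of the K2P family, which carry tandem pore domains, set how easily it is excited. Around these pore-forming subunits sit auxiliary subunits that alter gating or trafficking, and silent subunits that form channels only together with the pore subunits of another family.

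Expression was deposited as TPM, the reads of a gene divided by its length and scaled to the same total in every library. The lengths behind the TPM are summed over all transcripts of a gene, which lowers genes with many transcripts, so levels of different genes are compared below only as length-corrected TPM, in which each exonic base counts once. The libraries held between 25799249 and 32983884 recovered reads on genes, and at most 3 reads in a library was taken as the floor of detection. These sums exceed the depth that the study's methods state, and whether a unit is a read, an end of a read pair or another count was not given. Snd1 itself had 113, 119 and 112 TPM in Control 1 to 3 and 14.7, 57.1 and 19.9 TPM in Snd1 KO 1 to 3. Every Snd1 KO clone was thus below every control clone, and Snd1 KO 2 kept the most transcript. Transcript from a disrupted gene does not measure its protein. The study chose its Snd1 KO clones by immunoblot for SND1 and reported exon 2 indels in them that disrupt the protein. All 12 β-cell marker genes examined passed the filter on low values, among them Ins1, Ins2, Iapp and Pdx1. Their summed level was 45473, 49516 and 78321 TPM in Control 1 to 3 and 49290, 83342 and 67266 TPM in Snd1 KO 1 to 3, so it was high in Control 3, Snd1 KO 2 and Snd1 KO 3. Iapp was the largest part of this sum in every clone, so the sum does not stand for the single markers. Iapp and Ins1 followed the sum, whereas Ins2, Mafa and Slc2a2 were lowest in Snd1 KO 3, at 11194, 419 and 32.8 TPM. Neurod1, a transcription factor of the β cell, was the 1 marker above all control clones, with 355 to 399 TPM in control and 556 to 726 TPM in Snd1 KO clones (log2 fold change 0.78, standard error 0.14, limma adjusted p = 0.372). The clones did not separate by group alone. On the first principal component, with 40.3% of the variance, Control 3 lay on the side of Snd1 KO 2 and Snd1 KO 3, and Snd1 KO 1 stood apart on the second, with 27.4%. Results are therefore also given without these libraries. In bulk RNA, fewer cells that express a gene and less RNA per cell cannot be told apart.

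Of the 133 channel genes, 30 reached a mean of 10 length-corrected TPM over the 6 clones. Kcnk16, an islet K2P background channel, had the highest mean, 139 ± 78.6 length-corrected TPM (SD, n = 6), and ranged from 23.7 in Snd1 KO 1 to 234 in Snd1 KO 2. Cacng7 followed with 122 ± 26.7 length-corrected TPM (SD, n = 6). Its protein and those of Cacng4, Cacng2, Cacng3 and Cacng5 are known mainly as auxiliary subunits of AMPA-type glutamate receptors. These leading genes could not be put in order, because the clones of Kcnk16 spread over the whole range of Cacng7. Next came the ERG potassium channel Kcnh6 with 68.6 ± 21.2, Cacng4 with 65.5 ± 15.5 and the calcium channel subunit Cacna2d1 with 56.3 ± 14.4 length-corrected TPM (SD, n = 6 each), whose clones also overlapped. Kcnab2, a β subunit of Kcna channels, had a mean of 50.6 length-corrected TPM. Kcnip3 and Kcnip1, calcium-binding subunits of Kcnd channels, had 42.4 and 37.9. The second ERG gene, Kcnh2, had 41.6, and the T-type calcium channel Cacna1h had 33.0 length-corrected TPM.

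**Figure D1:**
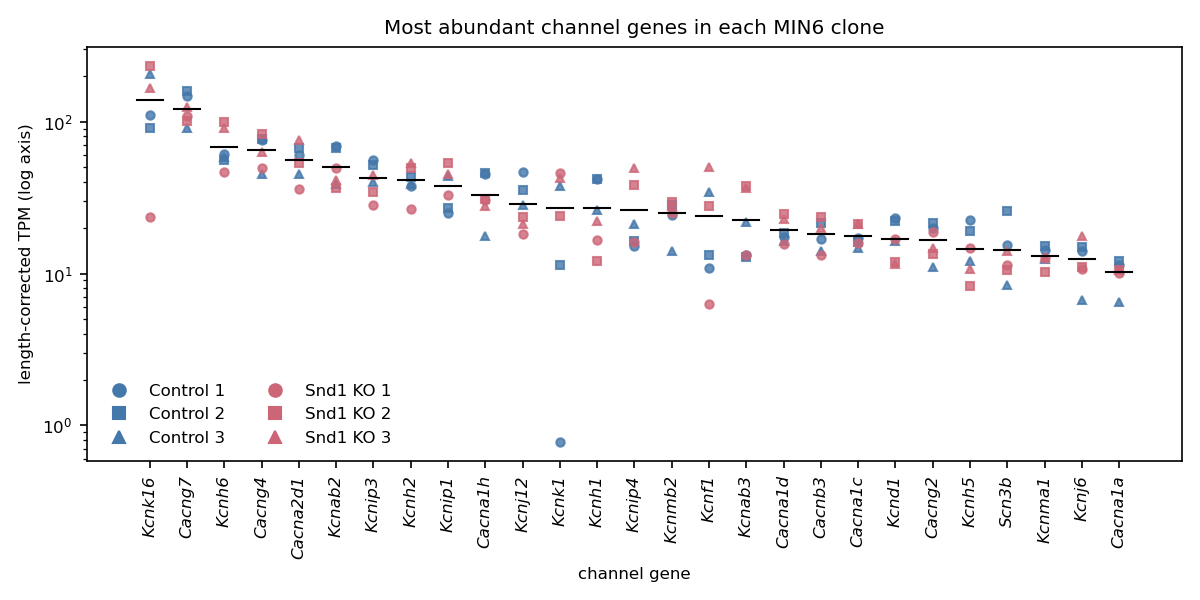
Length-corrected TPM (log axis) of 27 of the 30 channel genes whose mean reached 10 units, in order of their mean over the 6 MIN6 clones. Each point is 1 clone, control in blue and Snd1 KO in red, and the black line is the mean of all 6. Kcnk16 and Cacng7 lead, and for Kcnk16 the point of Snd1 KO 1 lies far below the other 5, at 23.7 length-corrected TPM.

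Other genes were listed at or near 0. In 13 members no read was recovered in any clone, among them Kcna3, Kcnj1, Kcnj15, Kcnk5 and Scn10a. In total 28 of the 65 members that missed the filter had at most 3 reads in every clone. Of 50 channel genes known from islet physiology, 37 passed the filter of a mean of 0.5 TPM, and Cacna1g, Cacna2d2, Kcna3, Kcna5, Kcna6, Kcnd3, Kcng2, Kcnj5, Kcnn3, Kcnn4, Kcnq1, Scn2a and Scn3a did not. Families with no member above the filter were Kcne, Kcnrg and Kcnv, whose highest members were Kcne1 with at most 14 reads, Kcnrg with at most 5 and Kcnv1 with at most 3. Kcnu1, known as a channel of sperm, was detected in every clone with 217 to 320 reads.

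Snd1 KO clones were compared with control clones to ask which channel genes differ when Snd1 is disrupted. The ether-à-go-go channel Kcnh1 had a Snd1 KO mean of 10.1 TPM beside 22.0 TPM in control clones, and the inward rectifier Kcnj12 one of 12.7 beside 22.4 TPM. The L-type calcium channel genes Cacna1c and Cacna1d and the sodium channel gene Scn8a had Snd1 KO means at 119.6%, 120.2% and 94.3% of the control means. No channel gene passed the adjusted threshold. Limma was run on log2(TPM + 1) of all 17823 genes whose mean reached 0.5 TPM, and a fold change is the Snd1 KO minus the control mean on this scale, which understates the change of low genes. The filter kept 68 of the 133 members, 47 potassium, 16 calcium and 5 sodium channel genes. Of these, 4 passed through the mean of 1 group only, among them Kcng3, Kcnj4 and Kcnk2, so counts over the 68 are not counts over all members. At an adjusted p under 0.05 with a change of at least 2-fold, limma called 0 of the 68 members, against 0.00561% of all genes tested, which is 1 gene. At an unadjusted p under 0.05 it found 8 members, 4 higher and 4 lower in Snd1 KO, which is 11.8% of the members beside 7.96% of all genes. In the direction of higher values all genes gave 5.63%, and in the direction of lower values 2.33%. The split of 4 higher and 4 lower became 3 and 8 with quantile normalization, 4 and 8 with median ratio scaling and 6 and 7 with voom on recovered reads, while 8.15%, 8.29% and 8.73% of all genes were at that p. The median log2 fold change over the 68 members was 0.064, beside 0.044 over all genes, and 38 of the 68 lay above 0, 55.9% beside 57.3% of all genes. A p that misses the threshold does not show that a gene had the same level in both groups.

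**Figure D2:**
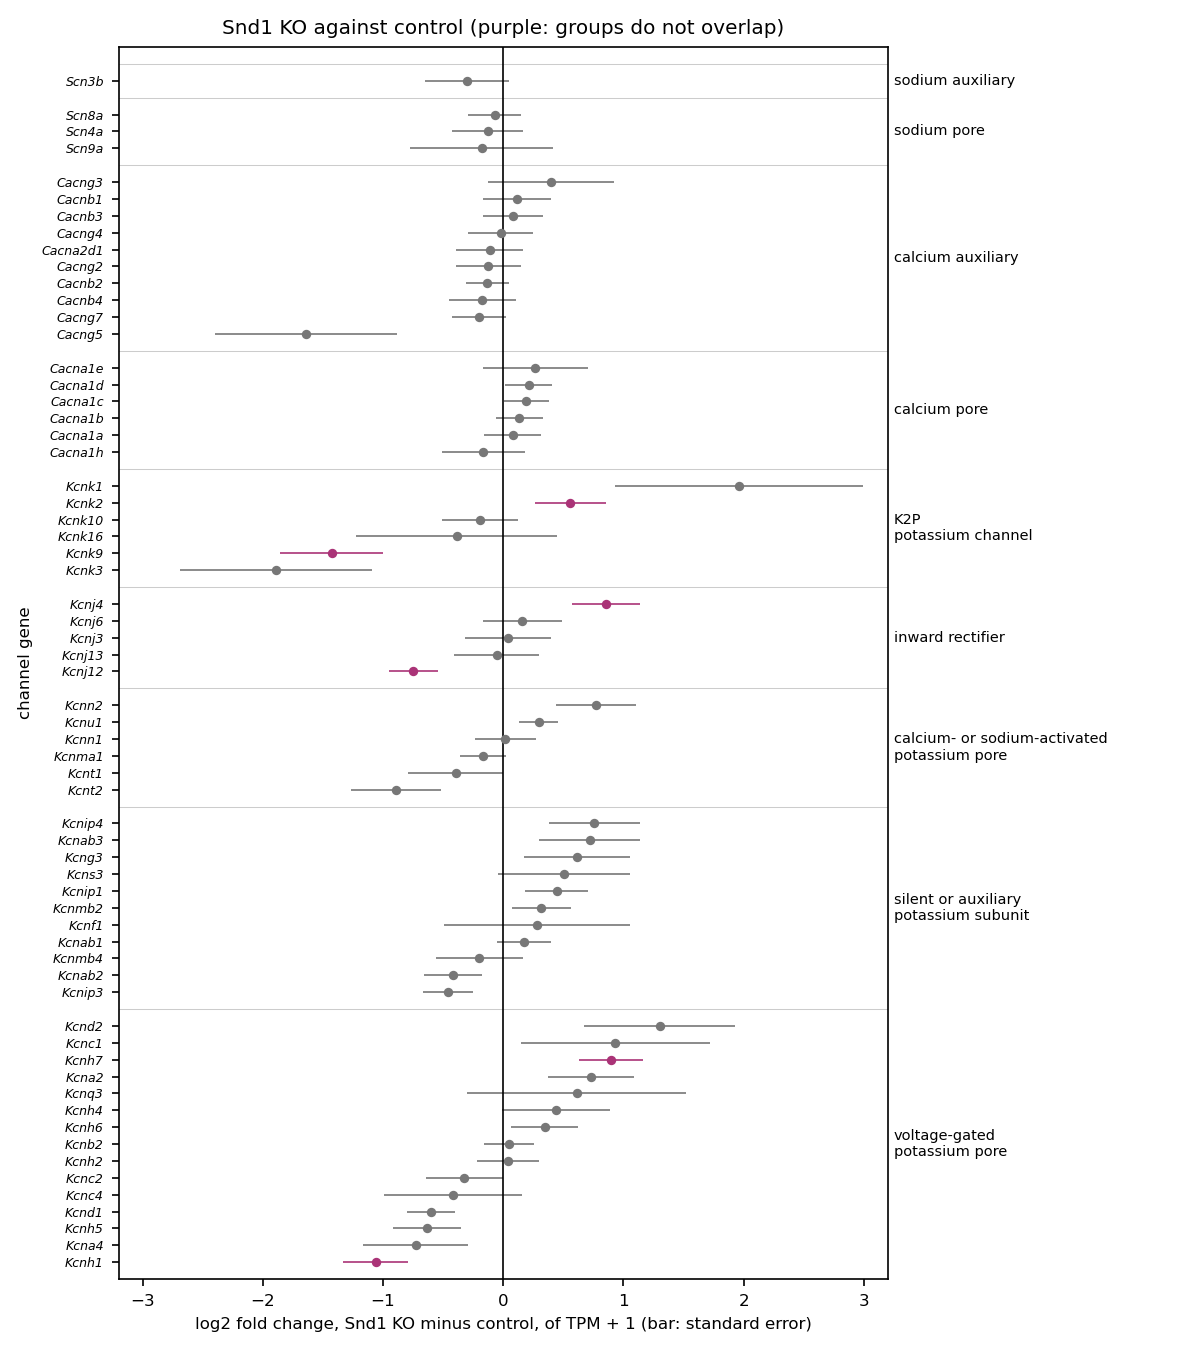
Log2 fold change (Snd1 KO minus control, of TPM + 1) of 63 of the 68 channel genes tested, grouped by role, with the standard error from limma as bars. Purple marks 6 of the 8 genes whose groups do not overlap, and the long bars of Kcnk1, Kcnk3, Cacng5 and Kcnq3 show how far their clones spread within a group.

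In 8 of the 68 members the values of the groups did not overlap, 11.8% beside 13.7% of all genes, so the share of members was no higher than that of all genes. In 5 of them, with Kcnh7, Kcnj4 and Kcnk2 among these, every Snd1 KO clone was above every control clone, a direction found in 9.69% of all genes. Kcnj4 and Kcnk2 passed the filter only through their Snd1 KO means, the group in which they are high. Their place in this count therefore depends on the filter. In 3 of the 8, Kcnh1, Kcnj12 and Kcnk9, every Snd1 KO clone was below every control clone, found in 4.03% of all genes. In these 3, Control 1 and 2 were also above Control 3, the order over clones of several muscle markers described with the other cell types. With 3 clones against 3, an exact two-sided permutation test cannot go below p = 0.1, which each of the 8 reached. All of these are potassium channel genes, which make up 47 of the 68 tested. In the 16 calcium and 5 sodium channel genes tested the groups overlapped in every case. At the share of all genes, 13.7%, few of so small a number would be separated. A difference between the channel types was not tested.

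Kcnh1 (ENSMUSG00000058248, chr1:192190774-192510159, plus strand, GRCm38) encodes an ether-à-go-go channel. It had 25.3, 25.2 and 15.6 TPM in Control 1 to 3 and 9.84, 7.21 and 13.1 TPM in Snd1 KO 1 to 3, with means of 22.0 ± 5.54 and 10.1 ± 2.97 TPM (SD, n = 3 each). Control 3 was the nearest control clone to the Snd1 KO clones. The log2 fold change was −1.06 (standard error 0.27, limma adjusted p = 0.556). Its closest relative Kcnh5 had 35.9, 30.3 and 19.3 TPM in Control 1 to 3 and 23.4, 13.2 and 17.0 TPM in Snd1 KO 1 to 3, where Snd1 KO 1 lay above Control 3.

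Kcnj12 (ENSMUSG00000042529, chr11:61022564-61071131, plus strand) encodes a strong inward rectifier, a channel that passes potassium inward more easily than outward and holds the resting potential. It had 28.5, 21.6 and 17.1 TPM in Control 1 to 3 and 11.1, 14.3 and 12.8 TPM in Snd1 KO 1 to 3, a log2 fold change of −0.75 (standard error 0.20, limma adjusted p = 0.568). Kcnj4 (ENSMUSG00000044216, chr15:79483714-79505241, minus strand) encodes a channel of the same subfamily and pointed the other way. It had 1, 3 and 1 reads in Control 1 to 3, all at the floor, and 15, 6 and 16 reads in Snd1 KO 1 to 3. The highest value of Kcnj4 was 1.39 TPM, so it stayed well below Kcnj12 in every clone also in length-corrected TPM, at most 0.877 beside at least 18.3.

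Kcnh7 (ENSMUSG00000059742, chr2:62693414-63184287, minus strand), the least abundant ERG gene here, had 0.825, 0.769 and 0.259 TPM in Control 1 to 3 from 96, 85 and 26 reads. In Snd1 KO 1 to 3 it had 1.51, 2.41 and 2.07 TPM from 158, 244 and 224 reads. The other ERG genes overlapped between groups. Kcnh6 had 32.5 to 35.6 TPM in control clones and 26.7, 57.6 and 52.5 TPM in Snd1 KO 1 to 3, and Kcnh2 had 31.0 to 35.5 TPM and 21.7, 40.4 and 43.3 TPM. In both genes Snd1 KO 1 lay below, and Snd1 KO 2 and 3 above, all control clones.

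Kcnk9 (ENSMUSG00000036760, chr15:72501089-72546340, minus strand) encodes an acid-sensitive K2P channel. It had 11.0, 6.93 and 3.22 TPM in Control 1 to 3 and 0.914, 2.58 and 2.00 TPM in Snd1 KO 1 to 3, a log2 fold change of −1.43 (standard error 0.43, limma adjusted p = 0.568). The control clones alone differed more than 3-fold, and Control 3 lay close to Snd1 KO 2. Kcnk2 (ENSMUSG00000037624, chr1:189207930-189402273, minus strand), a mechanosensitive K2P channel, had 29, 29 and 10 reads in Control 1 to 3 and 34, 73 and 122 reads in Snd1 KO 1 to 3. It was separated by a small gap, with Control 2 at 0.314 TPM and Snd1 KO 1 at 0.388 TPM, and 12.2% of its exonic bases are shared with A430027H14Rik. Whether the counting used strand was not given, so reads there could belong to either gene. Kcnd1 (ENSMUSG00000009731, chrX:7822289-7838280, plus strand), an A-type channel, was the 1 member at an unadjusted p under 0.05 whose groups overlapped. It had 32.6, 30.8 and 22.9 TPM in Control 1 to 3 and 23.4, 16.8 and 16.0 TPM in Snd1 KO 1 to 3, so Snd1 KO 1 lay just above Control 3.

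**Figure D3:**
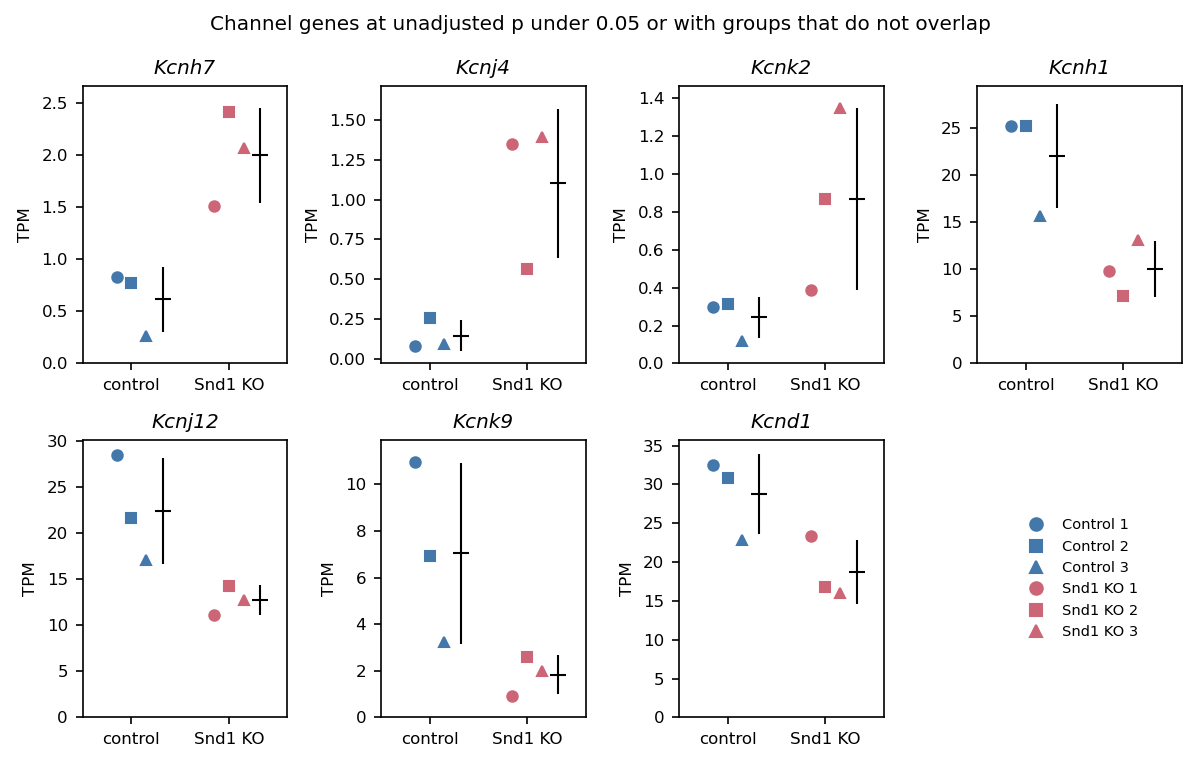
TPM of 6 of the 8 channel genes whose groups do not overlap and of Kcnd1, with each point 1 clone and the black line and bar the mean and SD of 3 clones. The vertical axes start at or near 0 and differ between genes. The mean of Kcnh1 is 10.1 TPM in Snd1 KO clones beside 22.0 TPM in controls, whereas Kcnj4 stays at or below 1.39 TPM in every clone.

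RefSeq start sites on build GRCm38.p6 were available for 99 of the members. The 150 bases before the start are printed for 5 of the separated genes, as genes whose values did not overlap between groups, and for Kcnk16 as 1 of the most abundant members. Kcnk9 and Kcnd1 were not in the table. Capitals mark a GC box, CCGCCC on the printed strand, the reverse complement of GGGCGG. The windows are chr1:192190627-192190776 for Kcnh1, chr11:61065654-61065803 for Kcnj12, chr2:63184288-63184437 for Kcnh7, chr15:79505242-79505391 for Kcnj4, chr1:189402274-189402423 for the most upstream of 4 starts of Kcnk2 and chr14:20269270-20269419 for Kcnk16. Kcnh1 and Kcnj12 are read on the plus strand and the other 4 on the minus strand, each 5′ to 3′ toward the start. The start used for Kcnj12 lies inside the GENCODE gene, and the last 3 bases of the Kcnh1 window are annotated as exon.
Kcnh1: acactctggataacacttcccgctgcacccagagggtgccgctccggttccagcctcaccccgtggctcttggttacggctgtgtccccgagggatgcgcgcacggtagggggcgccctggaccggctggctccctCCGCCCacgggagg
Kcnj12: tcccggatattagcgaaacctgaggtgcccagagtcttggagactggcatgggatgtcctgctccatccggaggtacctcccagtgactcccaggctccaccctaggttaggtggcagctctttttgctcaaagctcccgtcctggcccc
Kcnh7: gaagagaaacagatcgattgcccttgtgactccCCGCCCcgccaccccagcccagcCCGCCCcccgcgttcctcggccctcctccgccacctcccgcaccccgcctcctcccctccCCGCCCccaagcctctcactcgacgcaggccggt
Kcnj4: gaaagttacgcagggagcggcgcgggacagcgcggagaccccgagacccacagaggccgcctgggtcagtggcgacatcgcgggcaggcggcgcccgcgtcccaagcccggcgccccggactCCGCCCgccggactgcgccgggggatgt
Kcnk2: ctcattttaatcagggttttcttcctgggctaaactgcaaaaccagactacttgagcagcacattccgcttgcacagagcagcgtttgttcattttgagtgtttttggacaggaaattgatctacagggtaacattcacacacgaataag
Kcnk16: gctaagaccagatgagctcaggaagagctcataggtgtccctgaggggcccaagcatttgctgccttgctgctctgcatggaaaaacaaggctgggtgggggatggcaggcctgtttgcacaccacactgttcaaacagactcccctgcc
The Kcnh7 window holds 3 GC boxes and those of Kcnh1 and Kcnj4 hold 1 each, and these windows are 73.3%, 70.0% and 76.7% G and C. The windows of Kcnj12, Kcnk2 and Kcnk16 hold none and are 59.3%, 42.0% and 56.7% G and C. GC boxes on either strand thus stood both before a gene that was lower in Snd1 KO clones and before genes that were higher. Over all 32851 RefSeq starts, 28.6% had GGGCGG on either strand within 150 bases before the start, and 37.8% of the 135 starts of member genes did. The homeodomain core TAATTA, the kind of site that factors such as PDX1 bind, was in 2.73% of all starts and in 0 of the 135, and the cAMP response element TGACGTCA was in 1.36% of all and in 0 of the 135. TATAAA stood in 7.57% of all starts and 2.96% of those of members, and CCAAT in 24.5% and 17.8%. A match is only a run of letters, and an absent one says only that these letters are not in this window.

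The voltage-gated potassium pore genes, 19 of 30 tested, held 5 of the 8 members at an unadjusted p under 0.05, 26.3% of those tested beside 7.96% of all genes, and 13 of the 19 had a log2 fold change above 0, 68.4% beside 57.3% of all genes. These shares are a description of a small group and were not tested. Their summed level ran from 210.0 length-corrected TPM in Snd1 KO 1 to 337 in Snd1 KO 3, with the control clones in between at 232 to 249. Snd1 KO 1 and Snd1 KO 3 thus lay on opposite sides of all controls. Kcnd2, an A-type channel, showed the spread within groups. It had 4.37, 3.67 and 16.2 TPM in Control 1 to 3 and 8.88, 17.6 and 34.3 TPM in Snd1 KO 1 to 3, so Control 3 exceeded Snd1 KO 1. Kcnc1 had 2.60 to 4.01 TPM in control clones and 1.25, 8.28 and 22.8 TPM in Snd1 KO 1 to 3. Kcnq3, a subunit of the M-type channel, had 1.94, 1.64 and 7.08 TPM in Control 1 to 3 and 0.639, 6.01 and 18.4 TPM in Snd1 KO 1 to 3. In all 3 genes Snd1 KO 3 was the highest clone. The delayed rectifier Kcnb2 had 9.75 to 15.1 TPM over all clones, Kcna2 0.590 to 3.32 TPM, Kcna4 0.601 to 4.16 TPM, Kcnc2 1.21 to 3.19 TPM and Kcnc4 1.21 to 9.27 TPM, each with groups that overlapped.

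None of the 11 silent or auxiliary potassium subunits tested, of 27, reached an unadjusted p under 0.05, as 7.96% of all genes did. In so few genes a count of 0 is near that share. Kcnf1, a silent subunit that joins Kcnb channels, had 17.4, 21.3 and 55.3 TPM in Control 1 to 3 and 9.99, 44.9 and 80.6 TPM in Snd1 KO 1 to 3, a pattern over clones like that of Kcnq3. Kcns3, another silent subunit, ranged from 0.384 TPM in Snd1 KO 1 to 5.05 TPM in Snd1 KO 3. Kcng3 had its highest value, 3.12 TPM, in Snd1 KO 1 and at most 0.783 TPM elsewhere. Among subunits of Kcnd channels, Kcnip3, which is also known as a transcriptional repressor, had 40.2, 36.8 and 28.4 TPM in Control 1 to 3 and 19.97, 24.7 and 31.6 TPM in Snd1 KO 1 to 3. Kcnip4 had 5.41 to 7.53 TPM in control clones and 5.66, 13.6 and 17.4 TPM in Snd1 KO 1 to 3, and Kcnip1 20.04 to 34.95 and 25.8 to 42.3 TPM. The log2 fold changes of the Kcnip genes therefore lay on both sides of 0, and the groups overlapped in each. Kcnab3 had 10.9 to 18.4 TPM in control clones and 11.1, 31.9 and 30.9 TPM in Snd1 KO 1 to 3, and Kcnab2 18.9 to 33.9 and 17.8 to 24.0 TPM.

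The calcium-activated channel Kcnma1, a large-conductance channel, was even among the clones, with 3.03, 3.22 and 2.61 TPM in Control 1 to 3 and 2.67, 2.16 and 2.72 TPM in Snd1 KO 1 to 3. Its log2 fold change was −0.17 (standard error 0.19, limma adjusted p = 0.822). Of 4 genes for its β subunits 2 passed the filter. Kcnmb2 had 5.56 to 11.2 TPM in control clones and 9.78 to 11.7 TPM in Snd1 KO clones. Kcnmb4 had 1.61 to 5.26 and 2.55 to 3.30 TPM, and 31.5% of its exonic bases are shared with antisense genes. Of the small-conductance channels, Kcnn1 had 1.19 to 2.25 TPM over all clones. Kcnn2 had 0.404, 0.501 and 1.56 TPM in Control 1 to 3 and 1.65, 1.54 and 3.00 TPM in Snd1 KO 1 to 3, and only Control 3 kept the groups from separating. The sodium-activated channel Kcnt2 was the reverse case, with 3.19, 3.36 and 1.005 TPM in Control 1 to 3 and 0.457, 0.705 and 1.30 TPM in Snd1 KO 1 to 3. Of the G protein-gated inward rectifiers, Kcnj6 had 4.80 to 10.8 TPM in control clones and 7.66 to 12.6 TPM in Snd1 KO clones. Kcnj3 had 0.995 to 1.56 and 0.407 to 2.17 TPM, with 31.1% of its exonic bases shared with Gm26794. Both overlapped between the groups.

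The K2P channel genes, 6 of 14 tested, differed widely between clones. Kcnk16 had 139.7, 113 and 258 TPM in Control 1 to 3 and 29.4, 292 and 207 TPM in Snd1 KO 1 to 3, which rest on at least 461 reads in each clone. Snd1 KO 1 had the lowest and Snd1 KO 2 the highest value of the 6. The 3 clones with the most Kcnk16 were those with the highest sum of β-cell markers, which is mostly Iapp and insulin transcripts. Other β-cell markers did not all follow this order, and their part in the Kcnk16 level was not tested. The log2 fold change of −0.39 (standard error 0.84, limma adjusted p = 0.920) turned to 0.62 without Snd1 KO 1. Kcnk1, a weakly rectifying K2P channel, had the highest fold change of all members, 1.96 (standard error 1.03, limma adjusted p = 0.637). Over fits that left out 1 clone this value ran from 0.75 to 2.98. Without Control 1 it was 0.75, and the highest of the members was then 1.06. Kcnk1 had 0.788, 11.5 and 38.03 TPM in Control 1 to 3 and 45.9, 24.2 and 42.4 TPM in Snd1 KO 1 to 3, so Control 1 was far below the other 5 clones and Control 3 lay among the Snd1 KO clones. Kcnk3, the acid-sensitive relative of Kcnk9, had the lowest fold change, −1.89 (standard error 0.80, limma adjusted p = 0.607). Without Snd1 KO 1 this value was −1.14, and the lowest of the members was then −1.92. Kcnk3 had 20.4, 14.3 and 3.56 TPM in Control 1 to 3, and 0.0898, 3.77 and 4.65 TPM in Snd1 KO 1 to 3. Control 3 again lay among the Snd1 KO clones, and Snd1 KO 1 had 2 reads, within the floor.

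**Figure D4:**
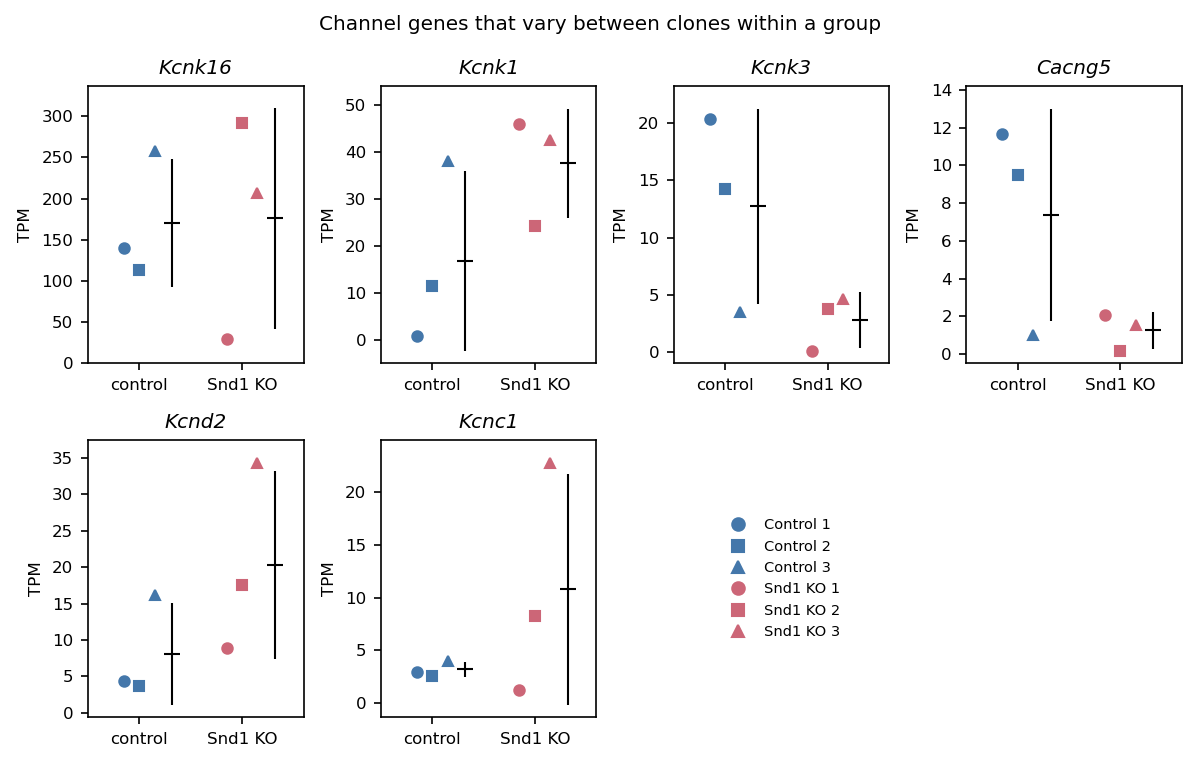
TPM of 6 channel genes that varied between clones of the same group, with each point 1 clone and the black line and bar the mean and SD of 3 clones. Control 3 lies among the Snd1 KO clones in Kcnk1, Kcnk3, Cacng5 and Kcnd2, and Snd1 KO 1 is the lowest clone in Kcnk16, Kcnk3 and Kcnc1.

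Of 10 voltage-gated calcium channel pore genes 6 were tested, and none reached an unadjusted p under 0.05 or had groups that did not overlap. Of all genes 7.96% and 13.7% did, so a count of 0 in 6 genes is near these shares. The L-type channels, which carry most of the calcium that triggers insulin release, were Cacna1d with 19.2 ± 3.69 and Cacna1c with 17.7 ± 2.72 length-corrected TPM (SD, n = 6 each), which did not differ beyond their spread. Cacna1c had 3.27, 3.07 and 2.80 TPM in Control 1 to 3 and 2.97, 3.996 and 3.97 TPM in Snd1 KO 1 to 3, a log2 fold change of 0.19 (standard error 0.19, limma adjusted p = 0.795). Cacna1d had 5.94, 6.24 and 5.49 TPM in Control 1 to 3 and 5.21, 8.32 and 7.71 TPM in Snd1 KO 1 to 3, a log2 fold change of 0.21 (standard error 0.20, limma adjusted p = 0.788). In both, Snd1 KO 2 and 3 lay above all control clones and Snd1 KO 1 did not. The T-type channel Cacna1h had 22.7, 22.8 and 8.84 TPM in Control 1 to 3 and 15.2, 15.5 and 13.8 TPM in Snd1 KO 1 to 3, so that the Snd1 KO clones lay close together between Control 3 and the other control clones. The P/Q-type Cacna1a had 3.81 to 7.20 TPM in control clones and 5.96 to 6.26 TPM in Snd1 KO clones, the N-type Cacna1b 2.42 to 3.33 and 2.79 to 3.49 TPM, and the R-type Cacna1e 0.522 to 1.36 and 0.226 to 2.60 TPM.

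The calcium channel auxiliary genes, 10 of 16 tested, also gave no member at an unadjusted p under 0.05, beside 7.96% of all genes. In 10 genes a count of 0 is near that share. Cacna2d1, the target of gabapentin, had 29.9, 32.8 and 22.2 TPM in Control 1 to 3 and 17.6, 26.2 and 36.8 TPM in Snd1 KO 1 to 3. The β subunits Cacnb1, Cacnb2 and Cacnb3 ranged over all clones from 0.703 to 1.82, from 4.53 to 6.14 and from 7.33 to 13.2 TPM. Cacng7 had 191, 204 and 116 TPM in Control 1 to 3 and 139, 131 and 161 TPM in Snd1 KO 1 to 3, and Cacng4 65.9 to 112 and 71.2 to 121 TPM. Cacng5 had 11.7, 9.49 and 1.01 TPM in Control 1 to 3 and 2.05, 0.136 and 1.55 TPM in Snd1 KO 1 to 3, with Control 3 among the Snd1 KO clones. For these genes the summed level was lowest in Control 3, at 218 length-corrected TPM, and highest in Control 2, at 373, so that the control clones spanned the Snd1 KO clones.

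Sodium channel genes were few. The pore genes Scn8a, Scn9a and Scn4a passed the filter, 3 of 10, and summed to between 7.60 and 16.5 length-corrected TPM with all other pore genes, below every other role. Scn8a had 3.24, 3.57 and 2.63 TPM in Control 1 to 3 and 2.18, 3.37 and 3.35 TPM in Snd1 KO 1 to 3. Scn9a, a channel that opens near rest, varied from 13 reads in Control 3 and 30 in Snd1 KO 2 to 810 in Control 1 and 518 in Snd1 KO 1, so each group held both low and high clones. Scn2a and Scn7a were each high in 1 clone, Control 2, with 245 and 43 reads beside at most 37 and 2 in the other 5. The auxiliary gene Scn3b had 3.63 to 11.1 TPM over all clones, with groups that overlapped.

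Beneath the filter, 3 potassium channel genes had more reads in every Snd1 KO clone than in any control clone. Kcnh3, an ELK channel, had 0, 1 and 3 reads in Control 1 to 3 and 28, 44 and 22 reads in Snd1 KO 1 to 3. Kcnk6, a K2P channel, had 0, 1 and 0 reads and 28, 8 and 5 reads. Kcnk12, another K2P gene, had 0, 0 and 1 reads and 15, 7 and 4 reads. These control values are all at the floor, so no fold is given. With no filter, limma on 120 members found 8 above and 4 below without overlap (all genes 10.4% in either direction), 12 at an unadjusted p under 0.05 (all genes 5.82%), and called 0. Kcnk6, Kcnk12 and Kcng4 are named after their values were seen. The gene added below was Kcng4, with 2, 3 and 1 reads in Control 1 to 3 and 0 in Snd1 KO clones, all within the floor.

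The spread among clones was wide in most members. In 61 of the 68 members, 89.7%, the range of log2(TPM + 1) within at least 1 group exceeded the difference of the group means, beside 93.0% of all genes. Among the 7 members in which it did not were Kcnd1, Kcnh1, Kcnh7, Kcnj4 and Kcnj12. In 27 of the 68 members, 39.7%, the highest clone was at least 4-fold above the lowest, beside 24.7% of all genes. In plain TPM, which depends on the summed transcript lengths, the median of the gene means was 5.62 for members and 10.6 for all genes. Snd1 KO 3 was the highest clone in 20 members, 29.4% beside 13.6% of all genes, and Snd1 KO 1 the lowest in 24, 35.3% beside 19.9%. Control 3 was the lowest in 21, 30.9% beside 28.9%. By a rule of 1 clone at least 4-fold above or below each of the other 5, with at least 1 TPM in some clone, there were 9, among them Cacng3, Cacng5, Kcnk1, Kcnk3, Scn2a and Scn7a. For Kcnh3 and Kcnj13, which also met it, the low clone and the next one both lay within the floor. Cacng3 had 0.0435 TPM in Snd1 KO 1 and 0.454 to 3.33 TPM in the others. Kcnj13 had 0 to 8 reads and shares exons with Gigyf2.

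**Figure D5:**
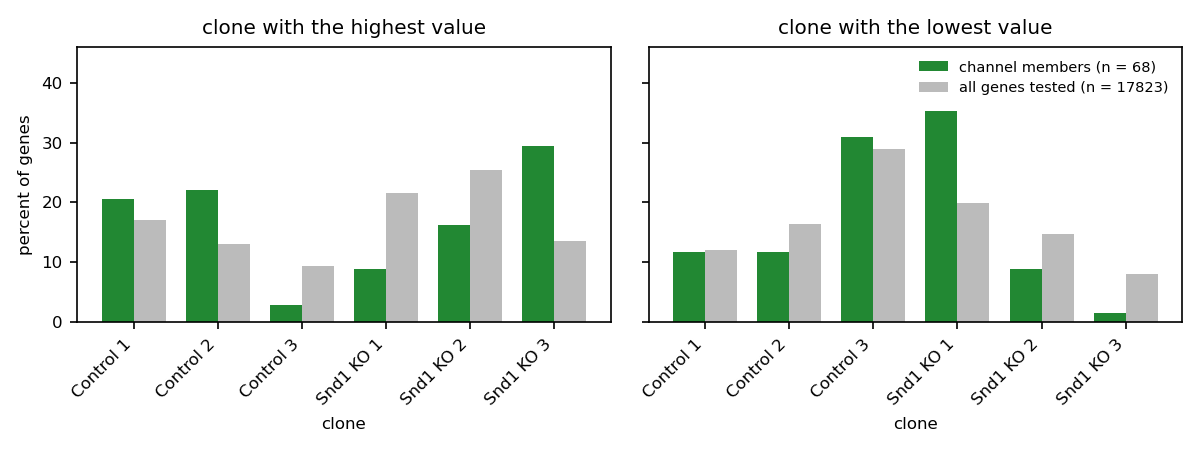
Percent of the 68 channel genes tested (green) and of all 17823 genes tested (grey) in which each clone had the highest value (left) or the lowest value (right). Snd1 KO 3 is highest in 29.4% of the channel genes and Snd1 KO 1 lowest in 35.3%, both above their shares of all genes.

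Leaving out the libraries that stood apart raised the counts at an unadjusted p under 0.05 and without overlap, among members and among all genes. Fewer clones alone also went with less overlap. Of all genes, 19.9% and 18.1% did not overlap without Control 1 or Control 2. Without Snd1 KO 2 or Snd1 KO 3 it was 20.2% and 21.8%, beside 13.7% with all 6 clones. Without Control 3, 27 of 68 members, 39.7%, were at an unadjusted p under 0.05 (all genes 13.9%) and 36, 52.9%, did not overlap (all genes 35.1%), with 0 called. Of the 27, 10 were higher and 17 lower in Snd1 KO, and of the 36, 14 lay above and 22 below. Without Snd1 KO 1, 18 of 67, 26.9%, were at an unadjusted p under 0.05 (all genes 14.3%) and 24, 35.8%, did not overlap (all genes 33.5%), again with 0 called. Here 13 were higher and 5 lower, and 19 lay above and 5 below, so the balance of directions turned with the clone left out. Without both, 2 clones against 2, limma called 5 of 67 members (all genes 2.12%). Among these were Kcnab3 with a log2 fold change of 1.42, Kcnd2 with 2.35, Kcnip4 with 1.31 and Kcnk3 with −1.80. Over all 6 clones these were 0.72, 1.30, 0.76 and −1.89, with limma adjusted p of 0.674, 0.608, 0.618 and 0.607. With 2 clones against 2, 38 of the 67 members, 56.7%, were at an unadjusted p under 0.05 (all genes 27.1%) and 51, 76.1%, did not overlap (all genes 61.2%). With all clones and library quality weights, which gave Control 3 and Snd1 KO 1 weights of 0.279 and 0.286 and Snd1 KO 3 one of 3.91, limma called 13 of 68 members (all genes 5.02%), 10 higher and 3 lower, and 40 of the 68, 58.8%, were at an unadjusted p under 0.05 (all genes 32.6%). Kcnab3, Kcnd2, Kcnip4 and Kcnk3 were among these, beside Cacng5, Kcna2, Kcnc1, Kcnh4, Kcnk9, Kcnn2, Kcnq3 and Kcns3. Kcnk9, which was also separated over all 6 clones, was called with the weights and not with 2 clones against 2. Both fits set clones aside or down-weight them by their expression.

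Other genes of membrane excitability and calcium handling were read beside the channels, 74 listed, of which 55 passed the filter. Limma called 0 of the 55, found 6 at an unadjusted p under 0.05, 10.9% beside 7.96% of all genes, and 9 did not overlap between groups, 16.4% beside 13.7% of all genes. Gem, a small GTPase that holds down voltage-gated calcium channels, had 47.2, 38.1 and 18.8 TPM in Control 1 to 3 and 8.33, 14.1 and 18.6 TPM in Snd1 KO 1 to 3, a log2 fold change of −1.25 (standard error 0.40, limma adjusted p = 0.571). Snd1 KO 3 lay directly below Control 3. Itpr3, a calcium release channel of the endoplasmic reticulum, had 2.54, 1.84 and 1.33 TPM in Control 1 to 3 and 12.0, 6.53 and 5.32 TPM in Snd1 KO 1 to 3. It was the clearest of the 55, with a log2 fold change of 1.57 (standard error 0.32, limma adjusted p = 0.445). The monovalent cation channel Trpm5, the calcium pump Atp2a2 and the cation channel Trpc1 were also above all control clones, with log2 fold changes of 0.34, 0.26 and 0.25. Lrrc8e, a subunit of the volume-regulated anion channel, was counted without overlap too but passed the filter through the Snd1 KO mean only. It had 2, 2 and 11 reads in Control 1 to 3, of which the first 2 lie within the floor, and 63, 31 and 27 reads in Snd1 KO 1 to 3. The store-operated channel Orai1 and the pacemaker channel gene Hcn3 were below all control clones, with −0.31 and −0.29, and the exchanger Slc24a3 was at −0.74 with groups that overlapped.

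Markers of other cell types were read because many of these channels are neuronal or muscle genes. Of 16 neuronal markers 13 passed the filter, and their sum lay between 1391 and 1874 TPM in all clones, with Nefm the 1 marker above all control clones in Snd1 KO. Of 17 glial, muscle, stromal, blood, vessel and exocrine markers 6 passed it, and their sum lay between 15.6 and 41.7 TPM. The acinar markers Cpa1 and Prss2 were listed at 0 in every clone. Actc1, a muscle actin, had 11.4 and 16.2 TPM in Control 1 and 2, 0 in Control 3 and at most 1.36 TPM in Snd1 KO clones. In 9 of the 17 markers, with the muscle genes Actc1, Myh6, Tnnt2, Des and Acta2 and the collagen gene Col3a1 among them, Control 1 and 2 were both above the other 4 clones. The same order stood in 22 of the 68 channel genes tested, 32.4% beside 16.1% of all genes, among them Kcnk3, Cacng5, Kcnt2 and the 3 genes separated below, Kcnh1, Kcnj12 and Kcnk9. Among 8 markers of other islet cells only Gcg passed the filter, with 1100 TPM in Snd1 KO 1 and 55.2 to 314 TPM in the other clones. The part of these markers in the channel results was not tested.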

How the data were processed

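RNA of 3 control and 3 Snd1 KO clones of MIN6 cells was analysed, with groups taken from the sample labels. The authors prepared libraries from cDNA with a transposase-based kit, sequenced them from both ends, ran the reads through the Genialis platform and deposited TPM values for each gene. The submitters' processing notes list FastQC, Trimmomatic, HISAT2, HTSeq and DESeq2 and the build mm10, without versions or roles. Ensembl identifiers were matched to GENCODE M21 (GRCm38), 53706 of 53801 mouse genes, and 99 spike-in rows were left out. The members and gene lists were chosen with earlier results of these data known. Genes named in the text are mainly those known from islet physiology that passed the filter, the highest member of each family, members or listed excitability genes at an unadjusted p under 0.05 or without overlap, and members where 1 clone was 4-fold apart. Some other named members met none of these rules, among them Kcnh5, Kcnab3, Kcnc1, Kcnip1 and Kcnip4. Of these, Kcnab3, Kcnc1 and Kcnip4 were called with library quality weights. Some of these genes are not reported here by name or value and stand in the counts only. Partner genes numbered 74, of which 73 were listed in the data.

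Each deposited TPM value, times the exon lengths added up over every transcript, gave whole multiples of 1 step per library for 93.5% of the values above 0, within 0.01 of a whole number, and 99.98% after a search for the lengths of the remaining genes. Of the members, 127 came out whole at the annotated length and 6 by the search. The multiples are called reads, although whether 1 unit is a read or a read pair was not given. They set depth and the floor of 3 reads, and cover counting error only. Snd1 KO and control were compared by limma 3.58.1 (lmFit, eBayes with trend) in R 4.3.3 on log2(TPM + 1) for genes whose mean reached 0.5 TPM, with Benjamini-Hochberg adjustment over 17823 genes. Single genes were also compared by an exact two-sided permutation test. Alternatives were a pseudocount of 0.1, no filter, a filter at a mean of 5 TPM, quantile normalization, median ratio scaling, TPM without insulin and mitochondrial genes, library quality weights, no trend, a replicate block, each clone left out, Control 3 and Snd1 KO 1 both left out, voom on recovered reads, each exonic base counted once, an adjusted p under 0.1 and no minimum fold change. Promoter windows came from RefSeq on GRCm38.p6, an assembly with the coordinates of GRCm38. Values were read and plotted in Python 3.11.15 (pandas 2.3.3, numpy 2.4.6, matplotlib 3.10.9).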

Additional observations from a re-analysis of the deposited data

How the results depend on the processing

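Limma called 0 channel and 0 partner genes under all alternatives except 2. Library quality weights called 13 channel genes and 6 partner genes, with 23 members higher and 17 lower at an unadjusted p under 0.05, 58.8% beside 32.6% of all genes. Without Control 3 and Snd1 KO 1 it called 5 and 3, with 21 higher and 17 lower, and 28 members above and 23 below without overlap, 76.1% beside 61.2% of all genes. Counts at an unadjusted p under 0.05 became 8 higher with no filter, 2 higher with a mean of at least 5 TPM, 7 higher without insulin and mitochondrial genes, and 8, 8 and 7 lower with quantile normalization, median ratio scaling and voom. In both directions, 10%, 14.3% and 15.5% of members were at that p under the first 3, beside 5.82%, 8.15% and 8.77% of all genes. Under the last 3 it was 16.2%, 17.6% and 19.1% of members, beside 8.15%, 8.29% and 8.73% of all genes. Counts without overlap became 8, 2 and 9 above under the same first 3 alternatives and 5 below under each of the last 3. In both directions, 10%, 11.4% and 16.9% of members did not overlap under the first 3, beside 10.4%, 13.95% and 15.3% of all genes. Under the last 3 it was 13.2%, 14.7% and 14.7% of members, beside 14.2%, 14.4% and 14.2% of all genes. Leaving out 1 clone at a time gave 3 to 13 higher and 3 to 17 lower at an unadjusted p under 0.05, 5 to 19 above and 3 to 22 below without overlap, and a median log2 fold change of −0.097 to 0.18. Over the same fits, 4.28% to 14.3% of all genes were at an unadjusted p under 0.05 and 18.1% to 35.1% did not overlap. Leaving out Control 3 or Snd1 KO 1 gave the highest of these counts.

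Log2 fold changes that turned sign had all lain within 1 standard error of 0. With quantile normalization, Cacna1a and Cacna1b were at −0.012 each, and with median ratio scaling Kcnh2 was at −0.0079. With quality weights Kcnk16 was at 0.58, Cacna1a at −0.12 and Cacna2d1 at 0.12, and without Control 3 and Snd1 KO 1 Kcnk16 was at 0.96, Cacna1a at −0.15 and Kcnj6 at −0.052. Over fits that left out 1 clone, values ran from −0.59 to 0.050 for Cacna1h, −0.68 to 0.30 for Scn9a, −0.17 to 0.078 for Scn8a, −0.16 to 0.22 for Cacna1a, −0.17 to 0.34 for Kcnj6, −1.02 to 0.62 for Kcnk16, −0.36 to 0.15 for Cacna2d1 and −0.14 to 0.34 for Kcnh2. The cause was not tested. Clone numbers shared by the groups gave no sign of pairs, as deviations of same-numbered clones correlated at 0.12, −0.20 and −0.11 over 11368 genes. These are deviations from means of 3 clones, so they cannot exclude a pairing. With the number as a replicate block, 0 members were called. At an unadjusted p under 0.05, 6 were higher and 5 lower, 16.2% of members beside 6.70% of all genes. In 8 the groups did not overlap, 11.8% beside 13.7% of all genes. Genes near the floor, such as Kcnj4 with at most 16 reads, rest on few counts.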
